A study of Mus musculus with 6 samples.

Results

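The genes described here govern how a macrophage makes, moves and exports sterols and fatty acids. They are 34 genes chosen by symbol from a table of 54532 genes, and each symbol was found. Transcripts were measured by RNA sequencing in macrophages of WT mice (3 libraries, replicates 1, 2 and 3) and of PGRN KO mice, which lack progranulin, a secreted glycoprotein encoded by Grn (3 libraries, replicates 4, 5 and 6). Both groups were labelled C57BL/6J and held macrophages recruited to the peritoneal cavity. Wells of 2000000 cells received 1 cell of Candida albicans per macrophage in vitro, and RNA was taken 6 hours later, as the labels give it. The text of the study names bone marrow-derived macrophages and another ratio of fungus to cells, so neither the source of the cells nor the dose is settled. All 6 libraries came from challenged cells, so the data compare genotypes during the challenge and hold no baseline. According to the methods of the study the PGRN KO mice and the WT mice came from different suppliers, so genotype and source of the animals cannot be told apart. The labels do not say whether libraries of a group came from separate animals, and p-values therefore measure the spread between these libraries, which may be technical.

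Cells adjust their sterol supply with a pair of opposed transcription programs. When membrane cholesterol is low, SCAP carries the SREBP factors from the endoplasmic reticulum to the Golgi, where they are cleaved and released to switch on the genes of cholesterol synthesis, whereas INSIG proteins hold SCAP back when sterols are plentiful. Oxysterols, by contrast, activate the nuclear receptors called LXR, which induce cholesterol exporters, an E3 ligase that removes lipoprotein receptors, and the factor SREBP-1. Macrophages rely on export because they take up large amounts of lipid from engulfed cells and microbes. The 34 genes were accordingly divided into 19 genes of the SREBP-2 program, 5 of fatty acid synthesis, 4 LXR targets, 3 regulators of SREBP and 3 of sterol transport and modification.

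Promoter sequence was searched for motifs in the SREBP-2 program, the other lists and all genes, apart from transcript levels. RefSeq promoter windows on GRCm38.p6 (300 bases, of which 50 follow the start of transcription) were found for 26 of the 34 genes. The motif CCAAT, bound by NF-Y, a partner of SREBP, lay on either strand in 14 of 15 genes of the SREBP-2 program that had a window, and in 41.1% of all 27025 genes with a window. GGGCGG, bound by Sp1, lay in 14 of those 15 genes and in 38.2% of all genes. Among LXR targets with a window CCAAT lay in 2 of 3 and GGGCGG in 3 of 3, as they did among the regulators of SREBP. In fatty acid synthesis they lay in 1 of 3 and 0 of 3. Over all 26 genes CCAAT lay in 20 and GGGCGG in 21, so neither motif was confined to the SREBP-2 program. CACGTG, the E-box that SREBP proteins can also bind, lay in 4 of the 15 genes of the SREBP-2 program (Dhcr7, Hsd17b7, Insig1 and Sc5d). It lay in 6 of all 26 genes, which adds Abca1 and Scap, and in 8.09% of all genes with a window. A strict form of the sterol regulatory element, TCACNCCAC, was found in Hmgcs1 alone among the 26 genes with a window, and in 1.44% of all genes. A match is a description of letters in a window and not of a bound site, and no binding data were analysed here. The upstream bases of 3 genes are shown 5′ to 3′ because they span the responses described below. Hmgcs1 holds the element and was not called, Insig1 holds an E-box and had the smallest adjusted p of the SREBP-2 program, and Fasn was lowered and stands for fatty acid synthesis. Capitals mark TCACNCCAC and CCAAT on either strand, so that CCAAT on the other strand reads ATTGG. In Hmgcs1 (chr13:119690101-119690350, plus strand) the sterol regulatory element begins 137 bases before the RefSeq start. In Insig1 (chr5:28071162-28071362, plus strand) CCAAT begins 216 bases before the RefSeq start, which lies inside the gene model. The 201 bases shown for Insig1 therefore end before that RefSeq start, at the start of the gene model. In Fasn (chr11:120824548-120824797, minus strand) a pair of overlapping sites begins 62 and 59 bases before the RefSeq start.
Hmgcs1: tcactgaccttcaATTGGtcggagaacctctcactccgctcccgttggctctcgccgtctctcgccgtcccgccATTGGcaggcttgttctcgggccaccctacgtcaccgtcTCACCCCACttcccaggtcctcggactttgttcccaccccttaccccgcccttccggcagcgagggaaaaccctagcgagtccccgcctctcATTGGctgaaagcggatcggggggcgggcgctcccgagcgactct
Insig1: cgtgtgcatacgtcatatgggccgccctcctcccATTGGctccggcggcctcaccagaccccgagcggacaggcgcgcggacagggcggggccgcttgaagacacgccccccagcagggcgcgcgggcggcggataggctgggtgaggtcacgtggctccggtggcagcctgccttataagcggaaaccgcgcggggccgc
Fasn: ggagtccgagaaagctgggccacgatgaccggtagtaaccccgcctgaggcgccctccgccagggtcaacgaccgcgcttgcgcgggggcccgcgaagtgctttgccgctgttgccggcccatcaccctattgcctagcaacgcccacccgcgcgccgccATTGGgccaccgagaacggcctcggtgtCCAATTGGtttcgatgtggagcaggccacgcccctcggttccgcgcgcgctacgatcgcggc

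Between 15996786 and 17551619 fragments were counted per library, and Grn was at 324, 337 and 325 FPKM (fragments per kilobase of gene model, scaled by the authors to the size of the library) in WT against 0.0166, 0 and 0.0167 FPKM in PGRN KO. PGRN KO replicate 6 stood apart from the other libraries. Its deviations from the gene means fell with gene length (Spearman rho across genes, which are not independent, -0.47, against 0.15 to 0.24 in the other 5 libraries), so the count of called genes in each list is also given without it. All 8 macrophage markers were detected in both groups, with Lyz2 at 5745 and 6666, Cd68 at 1220 and 1185, and Adgre1 at 186 and 176 mean FPKM in WT and PGRN KO. Of these 8 markers Mertk was called higher (1.41 and 3.24 mean FPKM, limma adjusted p 0.0064), Csf1r was called lower (32.5 and 24.7 mean FPKM, limma adjusted p 0.018) and 6 were not called. Over all tested genes 10.4% were called higher and 13.8% lower. The summed level of the 8 markers was 11620 to 12560 FPKM in WT and 10440 to 14380 in PGRN KO. Of 5 markers of large peritoneal macrophages 3 were tested, of which Icam2 was called higher (3.10 and 5.10 mean FPKM, limma adjusted p 0.0091) and 2 were not called. Of the 5, 1 that was too low to be tested was lower in every PGRN KO library than in every WT library. The summed level of the 5 was 19.8 to 23.8 FPKM in WT and 19.7 to 23.97 in PGRN KO. Marker lists of other cells were low beside the macrophage list, and their summed levels differed by genotype. Most of these markers were too low to be tested. Of those tested, 2 of 2 mast cell and 2 of 2 B cell markers were called higher and 1 of 2 neutrophil markers lower. Without PGRN KO replicate 6 it was 2 of 2, 1 of 1 and 1 of 2, beside 15.9% higher and 25.1% lower of all tested genes. Over all tested genes every PGRN KO library was higher than every WT library in 21.2%, and lower in 27.6%. The counts that follow include markers too low to be tested, so they are not of like genes. Of the tested markers alone, 2 of 2 mast cell and 2 of 2 B cell markers were higher in every PGRN KO library, and 2 of 2 neutrophil markers were lower. Of 5 mast cell markers 4 were higher in every PGRN KO library (summed 2.23 to 3.19 FPKM in WT and 9.31 to 13.9 in PGRN KO), as were 5 of 5 B cell markers (1.501 to 2.50 and 6.62 to 8.92), 3 of 5 T and NK cell markers (1.48 to 1.66 and 2.38 to 3.88) and 3 of 5 mesothelial cell and fibroblast markers (0.896 to 1.03 and 1.79 to 3.23). Of 7 neutrophil markers 2 were lower in every PGRN KO library (summed 60.2 to 66.8 and 32.3 to 36.1), while Ly6g and Elane were at 0 in all 6, and 2 of 4 dendritic cell markers were lower (1.77 to 2.23 and 1.08 to 1.36, Cd209a at 0). The part of these cells in the results below was not tested. In bulk samples fewer cells of a type and less RNA per cell cannot be told apart.

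Genotypes were compared with limma on log2(FPKM + 1) over the 8882 genes whose mean was at least 1 FPKM, a scale that understates changes of weakly expressed genes, and adjusted p-values below are those of limma with the Benjamini-Hochberg method over all 8882. Of the 34 genes 24 were tested. Ch25h and Abcg1 rose in PGRN KO, whereas Insig1, Sqle, Msmo1, Fasn, Srebf2, Mylip, Npc1 and Soat1 fell. Thus 2 of 24 were called higher, where 10.4% of all tested genes were, and 8 of 24 were called lower, where 13.8% of all tested genes were. The other 14 did not pass the test. On the log2 scale the 24 genes had a median change of -0.17, against -0.03 for all tested genes. Without PGRN KO replicate 6, when 15.9% of all tested genes were called higher and 25.1% lower, the same 10 genes were called and Abca1, Mvd and Cyp51 were called lower as well, which made 2 higher and 11 lower of 25 tested. In 5 of the 24 genes every PGRN KO library exceeded every WT library, where the share of all tested genes was 21.2%, and in 11 every PGRN KO library was below every WT library, where it was 27.6%. Scaling moved the balance of calls over all genes, since 42.8% of calls were higher as deposited and 60.3% were after rescaling all libraries to an equal sum of FPKM (a TPM scale).

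**Figure D1:**
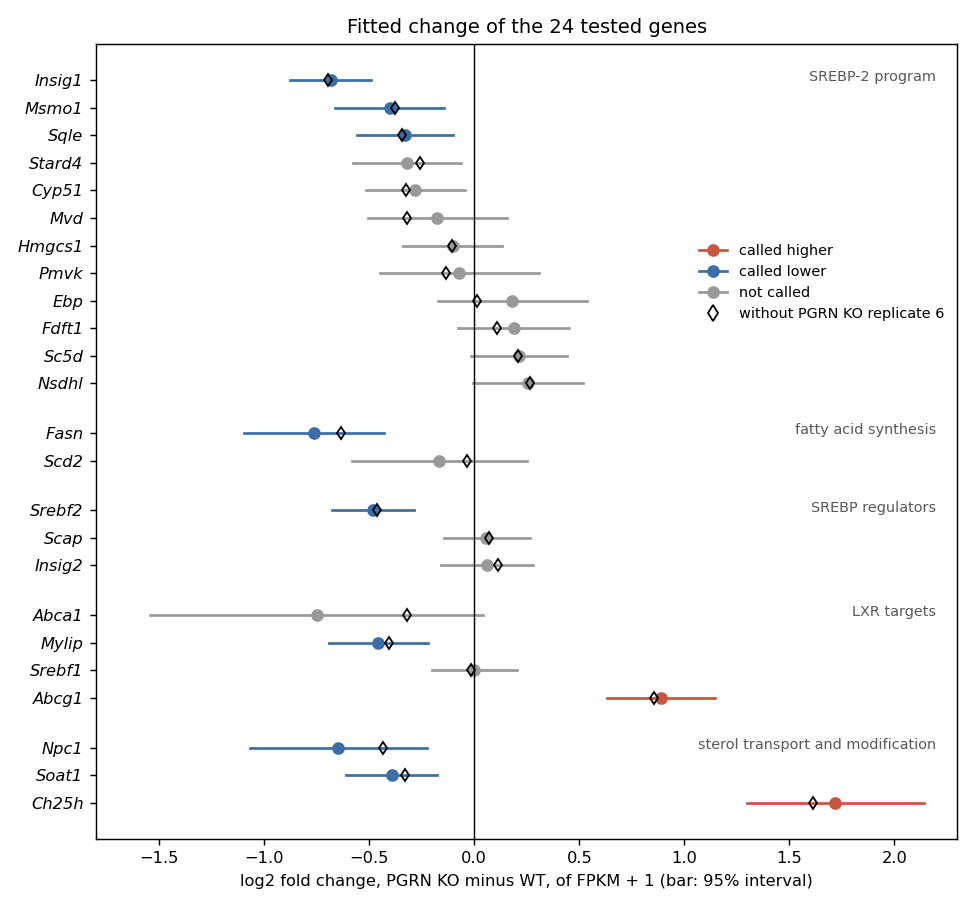
Fitted log2 fold change (PGRN KO minus WT, of FPKM + 1) of the 24 tested genes by role, with 95% intervals as bars, coloured by whether limma called the gene higher, lower or neither, and open diamonds for the fit without PGRN KO replicate 6. Ch25h at 1.72 and Abcg1 at 0.89 lie right of 0, and the bar of Abca1 is the widest (-1.54 to 0.04).

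The regulators of SREBP were examined next. Srebf2, which encodes the factor that drives cholesterol synthesis (ENSMUSG00000022463, chromosome 15, 82147181 to 82205379 on GRCm38), was at 19.6, 20.9 and 20.0 FPKM in WT and at 13.7, 14.99 and 13.8 FPKM in PGRN KO. All 3 PGRN KO libraries lay below all 3 WT libraries, and PGRN KO replicate 6 lay among its group. The mean fell from 20.2 ± 0.66 to 14.2 ± 0.72 FPKM (SD, n = 3 each), which limma fitted as -0.48 ± 0.08 on the log2 scale (SE, adjusted p 0.0089). Srebf1, the related gene that encodes SREBP-1 and is itself induced by LXR, was at 18.0, 18.5 and 16.3 FPKM in WT and at 17.8, 17.1 and 18.0 FPKM in PGRN KO. The groups overlapped, and the log2 fold change was 0.00 with a 95% interval from -0.20 to 0.20. The ratio of Srebf2 to Srebf1 within a library, both per length, averaged 1.15 ± 0.073 in WT against 0.806 ± 0.063 in PGRN KO (n = 3 each, SD). Every PGRN KO ratio lay below every WT ratio, which in an exact two-sided permutation test gives p = 0.1, the smallest that 3 against 3 libraries allow. Scap, the escort protein, was at 1.79, 1.67 and 1.79 FPKM in WT and 1.80, 1.98 and 1.82 FPKM in PGRN KO, with a log2 fold change of 0.06 and an adjusted p of 0.65 by limma. Of its exon bases 13.2% are overlapped by 5830462I19Rik on the other strand, so its reads are uncertain to that extent. Srebf2, called lower, was thus the only called gene of the 3 regulators, beside 13.8% of all tested genes called lower. The same held without PGRN KO replicate 6, beside 25.1%. The median log2 fold change of the 3 regulators was 0.06 and their mean -0.12, which differ in sign.

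The INSIG genes encode the retention proteins, and Insig1 is also a sterol-sensitive target of SREBP-2. Insig1 (ENSMUSG00000045294, chromosome 5, 28071363 to 28078662 on GRCm38) was at 23.4, 22.9 and 24.4 FPKM in WT and at 14.8, 13.5 and 14.6 FPKM in PGRN KO. The groups were far apart, with 3617 fragments over the WT libraries and 2362 over the PGRN KO libraries. The mean fell from 23.6 ± 0.74 to 14.3 ± 0.65 FPKM (SD, n = 3 each), which limma fitted as -0.68 ± 0.08 on the log2 scale (SE, adjusted p 0.003), and the adjusted p ranged from 9.9e-05 to 0.028 over 14 alternatives. Insig2, the form that does not depend on SREBP-2, was at 14.6, 14.1 and 13.4 FPKM in WT and at 14.5, 16.0 and 13.6 FPKM in PGRN KO. Its groups overlapped, with a log2 fold change of 0.06 and a 95% interval from -0.16 to 0.28. The ratio of Insig1 to Insig2 within a library averaged 1.68 ± 0.12 in WT against 0.979 ± 0.12 in PGRN KO (n = 3 each, SD, exact two-sided permutation p = 0.1).

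**Figure D2:**
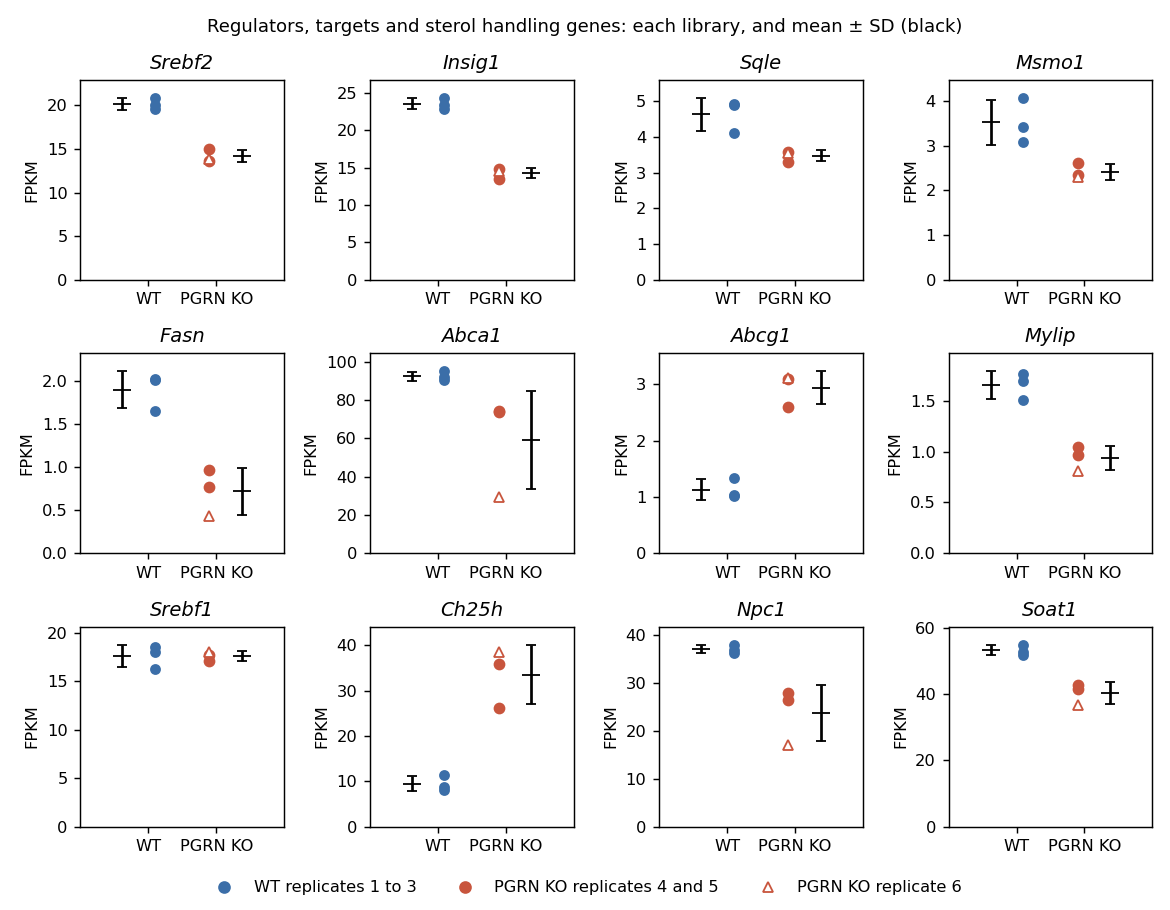
FPKM of 12 genes in each library, with WT replicates as blue dots, PGRN KO replicates 4 and 5 as red dots, PGRN KO replicate 6 as an open triangle, and mean ± SD in black beside them. Insig1, Srebf2, Sqle and Msmo1 separate by genotype with replicate 6 among its group, Srebf1 overlaps, and in Abca1, Npc1 and Fasn replicate 6 is the lowest library.

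The cholesterol synthesis enzymes were then followed in the order of the pathway. Of 17 enzymes 10 were tested, and 2 of them, Sqle and Msmo1, fell in PGRN KO, beside 13.8% of all tested genes, while none was called higher. There were 4 lower without PGRN KO replicate 6 (25.1% of all tested genes). With each other library left out there were 0, when 371 to 860 of all tested genes were lower. With sample quality weights 4 were lower and 1 higher, beside 2468 lower and 1757 higher of all 8882 tested genes. PGRN KO replicate 6 had a weight of 0.0899, against 1.07 to 3.79 in the other libraries, so this setting comes close to leaving it out. The median log2 fold change of the 10 was -0.09, with 4 above 0 and 6 below. Summed over all 17 enzymes, the level was 39.2, 36.8 and 40.4 FPKM in WT and 31.9, 35.5 and 40.7 FPKM in PGRN KO. PGRN KO replicates 4 and 5 lay below the WT libraries and PGRN KO replicate 6 above them. For the whole SREBP-2 program, which adds Insig1 and Stard4, 12 of 19 genes were tested, 3 were called lower (13.8% of all tested genes) and none higher (10.4%), and the median log2 fold change was -0.14 beside -0.03 for all genes. At an unadjusted p under 0.05 in limma 0 of the 12 were higher and 5 lower. No share over all genes was counted at the unadjusted p, here or below. Voom called 0 higher and 4 lower, beside 949 and 1318 of all 8882 tested genes. The count in limma was 5 lower without PGRN KO replicate 6 (25.1% of all tested genes). With any other single library left out it was 1 lower, when 371 to 860 of all tested genes were lower. With sample quality weights it was 6 lower and 1 higher, again beside 2468 and 1757 of all 8882 tested genes.

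In the mevalonate steps none of the 3 tested genes passed the limma test, beside 10.4% higher and 13.8% lower of all tested genes. At an unadjusted p under 0.05 in limma, or with voom, 0 of them passed, where voom called 949 higher and 1318 lower of all 8882 tested genes. Hmgcs1, which makes HMG-CoA, was at 3.86, 3.93 and 3.56 FPKM in WT and at 3.07, 3.85 and 3.48 FPKM in PGRN KO, and the groups overlapped (log2 fold change -0.10, 95% interval -0.34 to 0.13). Of its exon bases 12.1% are overlapped by Gm48342 on the other strand. Mvd, the decarboxylase that yields isopentenyl diphosphate, was at 9.94, 9.68 and 10.5 FPKM in WT and 7.36, 8.33 and 11.0 FPKM in PGRN KO. PGRN KO replicates 4 and 5 were the lowest of the 6 libraries and replicate 6 the highest, with a log2 fold change of -0.18 and an adjusted p of 0.39 by limma. Without replicate 6 Mvd was called lower, at -0.32 with a limma adjusted p of 0.016. Pmvk, a kinase of the pathway, ranged from 0.7499 to 1.42 FPKM in WT and from 0.742 to 1.22 FPKM in PGRN KO. Its log2 fold change of -0.07 turned to 0.03 without WT replicate 3 and to 0.04 without PGRN KO replicate 4.

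At the branch to sterols, Fdft1 (squalene synthase) was at 1.202, 1.36 and 1.27 FPKM in WT and at 1.31, 1.60 and 1.90 FPKM in PGRN KO, with a log2 fold change of 0.19 and an adjusted p of 0.26 by limma. The value is uncertain because 18.3% of its exon bases are overlapped on the other strand by Ctsb, a far more abundant gene, and whether reads were counted by strand was not stated. Sqle (squalene epoxidase, a control point of the late pathway, ENSMUSG00000022351, chromosome 15, 59315077 to 59331192 on GRCm38) was at 4.89, 4.11 and 4.92 FPKM in WT and at 3.30, 3.58 and 3.55 FPKM in PGRN KO. The groups did not overlap. Its mean fell from 4.64 ± 0.46 to 3.48 ± 0.15 FPKM (SD, n = 3 each), which limma fitted as -0.33 ± 0.10 on the log2 scale (SE, adjusted p 0.047), which was the call closest to the threshold. The ratio of Sqle to Hmgcs1 overlapped between groups, at 1.23 ± 0.17 and 1.01 ± 0.074 (SD, n = 3 each, exact two-sided permutation p = 0.2).

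Beyond lanosterol, Msmo1 (a C4-methylsterol oxidase, ENSMUSG00000031604, chromosome 8, 64718139 to 64733792 on GRCm38) was at 4.07, 3.08 and 3.42 FPKM in WT and at 2.33, 2.61 and 2.29 FPKM in PGRN KO. No PGRN KO library reached the WT range. The mean fell from 3.52 ± 0.50 to 2.41 ± 0.18 FPKM (SD, n = 3 each), which limma fitted as -0.40 ± 0.11 on the log2 scale (SE, adjusted p 0.039). Cyp51, the lanosterol demethylase that acts just before it, was at 2.10, 2.45 and 2.49 FPKM in WT and at 1.58, 1.75 and 1.93 FPKM in PGRN KO. Its groups did not overlap, yet the adjusted p was 0.082 by limma (log2 fold change -0.28) and it was called only without PGRN KO replicate 6 (limma adjusted p 0.031) and with sample quality weights (limma adjusted p 0.024). Stard4, a soluble carrier of cholesterol and SREBP-2 target, was at 1.55, 1.40 and 1.41 FPKM in WT and at 0.899, 1.21 and 0.808 FPKM in PGRN KO, again without overlap and with an adjusted p of 0.074 by limma (log2 fold change -0.32). It was called with sample quality weights and with voom on recovered fragments. Of the later enzymes that were tested, Nsdhl, Sc5d and Ebp had fitted values above 0. Nsdhl, which works in the same demethylation complex as Msmo1, was at 0.691, 1.07 and 1.03 FPKM in WT and at 1.26, 1.37 and 1.26 FPKM in PGRN KO, and Sc5d, a desaturase, was at 3.12, 2.74 and 3.39 FPKM and at 3.52, 3.89 and 3.76 FPKM. In both genes every PGRN KO library lay above every WT library, but neither passed the test, with log2 fold changes of 0.26 and 0.21 and adjusted p of 0.14 and 0.15 by limma, although Nsdhl was called higher with sample quality weights (limma adjusted p 0.036). Ebp, a sterol isomerase, was at 4.86 to 5.12 FPKM in WT and at 4.94 to 7.64 FPKM in PGRN KO, the highest value being that of replicate 6.

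The other 7 enzymes were below a mean of 1 FPKM and were not tested. Fdps (farnesyl diphosphate synthase) had 7 fragments over the WT libraries and 7 over the PGRN KO libraries, and 26.7% of its exon bases lie within Gm43738 on the same strand. Its level cannot be read from these values. Acat2 (acetoacetyl-CoA thiolase) was at 1.22, 0.771 and 1.02 FPKM in WT and at 0.431, 0.498 and 0.705 FPKM in PGRN KO, without overlap, and it shares 43.8% of its 31-base words with Acat3 and other transcripts. With no filter on low values its log2 fold change was -0.37 with an adjusted p of 0.17 by limma. Mvk (mevalonate kinase), Idi1 (isopentenyl diphosphate isomerase), Lss (lanosterol synthase), Hsd17b7 (a sterol ketoreductase) and Dhcr7 (the reductase of the last step) overlapped between groups. Their group means ran from 0.243 FPKM for Hsd17b7 to 0.587 FPKM for Dhcr7, both in WT.

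**Figure D3:**
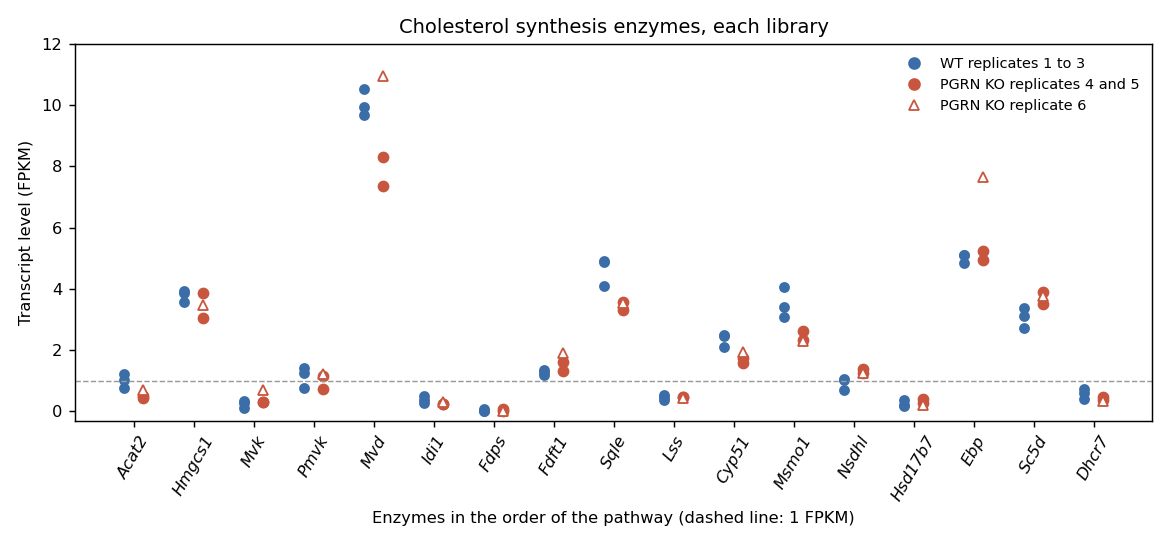
FPKM of the 17 cholesterol synthesis enzymes in pathway order in each library, with WT as blue dots, PGRN KO replicates 4 and 5 as red dots and PGRN KO replicate 6 as an open triangle, and a dashed line at 1 FPKM. Sqle, Cyp51 and Msmo1 in the middle of the order are lower in every PGRN KO library, Nsdhl and Sc5d are higher in every one, and Mvd and Ebp have their highest value in replicate 6.

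Of the 5 genes of fatty acid synthesis, only Fasn and Scd2 were tested, and Fasn was called lower, beside 13.8% of all tested genes. Without PGRN KO replicate 6, when 3 were tested, it was again 1 lower, beside 25.1% of all tested genes. Fasn, the fatty acid synthase (ENSMUSG00000025153, chromosome 11, 120805846 to 120824547 on GRCm38), was at 2.02, 1.66 and 2.03 FPKM in WT and at 0.765, 0.970 and 0.428 FPKM in PGRN KO. Each PGRN KO library was well below each WT library, and replicate 6 was the lowest. The mean fell from 1.90 ± 0.21 to 0.721 ± 0.27 FPKM (SD, n = 3 each), a ratio of 0.379, which limma fitted as -0.76 ± 0.14 on the log2 scale (SE, adjusted p 0.011). Without replicate 6 it was -0.64 with a limma adjusted p of 0.006. Scd2, a stearoyl-CoA desaturase, ranged from 0.9795 to 1.82 FPKM in WT and from 0.796 to 1.501 FPKM in PGRN KO and was not called (log2 fold change -0.17, limma adjusted p 0.52). The untested members were low. Scd1, the other desaturase, was at 0.433, 0.447 and 0.653 FPKM in WT and 0.764, 0.765 and 0.658 FPKM in PGRN KO, while Lpin1, a phosphatidate phosphatase, was at 1.119, 1.01 and 1.42 FPKM and at 0.765, 0.743 and 0.425 FPKM. Neither pair of groups overlapped, and with no filter the adjusted p was 0.32 for Scd1 and 0.15 for Lpin1 by limma. Acaca, which makes malonyl-CoA, overlapped, with means of 0.669 ± 0.061 and 0.609 ± 0.092 FPKM (SD, n = 3 each).

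The LXR targets had no common direction, with Abcg1 called higher and Mylip called lower. Abcg1, which exports cholesterol to high-density lipoprotein (ENSMUSG00000024030, chromosome 17, 31057698 to 31115777 on GRCm38), was at 1.01, 1.03 and 1.34 FPKM in WT and at 3.10, 2.60 and 3.12 FPKM in PGRN KO. All PGRN KO libraries lay far above all WT libraries, with 637 fragments in all against 229. The mean went up from 1.13 ± 0.18 to 2.94 ± 0.29 FPKM (SD, n = 3 each), a ratio of 2.61, which limma fitted as 0.89 ± 0.11 on the log2 scale (SE, adjusted p 0.0032). Abca1, which exports cholesterol to lipid-poor apolipoprotein (ENSMUSG00000015243, chromosome 4, 53030787 to 53159895 on GRCm38), was the most abundant of the 34 genes in WT, at 95.04, 92.2 and 90.3 FPKM, and was at 73.5, 74.4 and 29.6 FPKM in PGRN KO. The groups did not overlap, but replicate 6 was far below PGRN KO replicates 4 and 5, and the adjusted p was 0.14 by limma with a log2 fold change of -0.75. Its gene model is 10363 bases long, and replicate 6 is the library whose values fell with length. Without replicate 6 Abca1 was called lower, at -0.32 with a limma adjusted p of 0.0041, and after a length correction of all libraries it was at -0.61 with a limma adjusted p of 0.094. The ratio of Abcg1 to Abca1 ran from 0.0107 to 0.0148 in WT and from 0.0349 to 0.105 in PGRN KO, with every PGRN KO library above every WT library.

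Mylip, the E3 ligase that sends lipoprotein receptors to degradation (ENSMUSG00000038175, chromosome 13, 45389742 to 45412022 on GRCm38), was at 1.70, 1.51 and 1.77 FPKM in WT and at 0.964, 1.05 and 0.805 FPKM in PGRN KO. The groups did not overlap. Its mean fell from 1.66 ± 0.14 to 0.939 ± 0.12 FPKM (SD, n = 3 each), which limma fitted as -0.46 ± 0.10 on the log2 scale (SE, adjusted p 0.019). With Srebf1 described above, the 4 LXR targets comprised 1 higher, 1 lower and 2 not called, beside 10.4% higher and 13.8% lower of all tested genes. Their median log2 fold change was -0.23 and their mean -0.08. With PGRN KO replicate 6 left out there were 1 higher and 2 lower, beside 15.9% and 25.1% of all tested genes.

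SREBP targets and LXR targets were set side by side in each library, as the median deviation of the tested genes of a list from their means over the 6 libraries. For the SREBP-2 program this was 0.07, 0.03 and 0.14 in WT and -0.22, -0.05 and 0.03 in PGRN KO, and for the LXR targets 0.14, 0.11 and 0.09 in WT and 0.03, 0.01 and -0.15 in PGRN KO. Both lists were lower in every PGRN KO library than in every WT library, by a narrow margin for the SREBP-2 program. The difference between them (SREBP-2 program minus LXR targets) was -0.07, -0.07 and 0.05 in WT and -0.25, -0.06 and 0.18 in PGRN KO, so that the groups overlapped and the lists were not separated by genotype in these libraries.

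**Figure D4:**
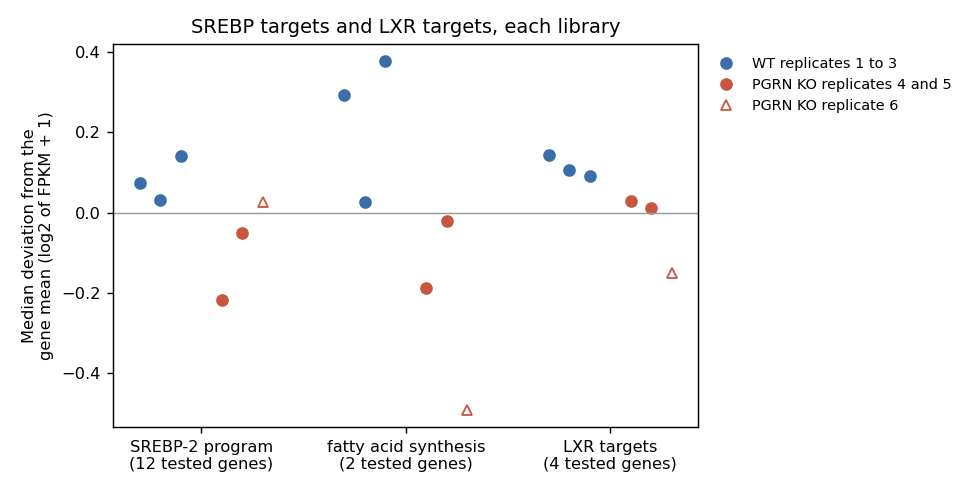
Median deviation from the gene mean (log2 of FPKM + 1) of the tested genes of the SREBP-2 program, fatty acid synthesis and the LXR targets, one point per library, with WT in blue, PGRN KO replicates 4 and 5 in red and replicate 6 as an open triangle. PGRN KO replicate 6 is the highest PGRN KO library for the SREBP-2 program (0.03) and the lowest for the LXR targets (-0.15) and for fatty acid synthesis (-0.49).

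Among genes that move or modify sterols, Ch25h had the largest fitted change of the 24 tested genes. Ch25h, the enzyme that makes 25-hydroxycholesterol, an oxysterol that restrains SREBP processing and activates LXR (ENSMUSG00000050370, chromosome 19, 34473786 to 34475135 on GRCm38), was at 8.15, 11.4 and 8.83 FPKM in WT and at 35.9, 26.1 and 38.7 FPKM in PGRN KO. The lowest PGRN KO library was above the highest WT library. The mean went up from 9.46 ± 1.7 to 33.6 ± 6.6 FPKM (SD, n = 3 each), a ratio of 3.55, which limma fitted as 1.72 ± 0.18 on the log2 scale (SE, adjusted p 0.002). Of its exon bases 11.5% are overlapped by Gm26902 on the other strand. Npc1, which releases cholesterol from lysosomes, was at 36.9, 36.4 and 38.1 FPKM in WT and at 26.5, 27.9 and 17.2 FPKM in PGRN KO. The groups did not overlap and replicate 6 was again the lowest, in a gene model of 10725 bases. Its mean fell from 37.1 ± 0.86 to 23.8 ± 5.8 FPKM (SD, n = 3 each), which limma fitted as -0.65 ± 0.18 on the log2 scale (SE, adjusted p 0.039), and without replicate 6 it was -0.44 with a limma adjusted p of 0.0021. Soat1, which esterifies cholesterol for storage in droplets (ENSMUSG00000026600, chromosome 1, 156424525 to 156474331 on GRCm38), was at 54.8, 51.9 and 52.7 FPKM in WT and at 41.6, 42.6 and 36.6 FPKM in PGRN KO. Again no library of a group reached the other. The mean fell from 53.1 ± 1.5 to 40.3 ± 3.2 FPKM (SD, n = 3 each), which limma fitted as -0.39 ± 0.09 on the log2 scale (SE, adjusted p 0.024). The median log2 fold change of these 3 genes was -0.39 and their mean 0.23, which differ in sign because Ch25h moved the other way. The count of 1 higher and 2 lower stood beside 10.4% and 13.8% of all tested genes. It was the same without PGRN KO replicate 6, beside 15.9% and 25.1%.

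The calls differed in how far they rested on single libraries. Insig1, Abcg1 and Ch25h passed whichever library was left out, with limma adjusted p of at most 0.028, 0.025 and 0.015. Srebf2 missed the threshold without WT replicate 1 or 2 (limma adjusted p 0.052 for each), and Fasn without WT replicate 1 or 3 (0.057 and 0.053). Mylip did so without WT replicates 1, 2 or 3 or PGRN KO replicate 4, Soat1 and Npc1 without the same 4 libraries, and Sqle and Msmo1 without any library except PGRN KO replicate 6. The limma adjusted p then reached 0.088 for Mylip, 0.12 for Soat1, 0.12 for Npc1, 0.18 for Sqle and 0.15 for Msmo1, each without WT replicate 1. None of the 10 called genes changed sign when a library was left out.

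Other genes of the same pathways were drawn from fixed lists. Of 23 further SREBP pathway genes 15 were tested, and 3 fell in PGRN KO, beside 13.8% of all tested genes, while none was called higher. Leaving out PGRN KO replicate 6 gave 4 lower, beside 25.1%. At an unadjusted p under 0.05 in limma 0 were higher and 4 lower. Voom called 0 higher and 3 lower, beside 949 and 1318 of all 8882 tested genes. Aacs, a cytosolic ligase that feeds acetoacetate into sterol synthesis, was at 6.02, 6.47 and 6.05 FPKM in WT and at 3.03, 3.78 and 3.90 FPKM in PGRN KO (fitted at -0.66 on the log2 scale, adjusted p 0.0072 by limma). Tmem97, the sigma-2 receptor, was at 4.33 to 4.96 FPKM and 2.65 to 3.58 FPKM (-0.43, limma adjusted p 0.035), and Rdh11, a retinol dehydrogenase, at 21.4 to 28.4 FPKM and 17.5 to 18.6 FPKM (-0.44, limma adjusted p 0.034). Aacs passed whichever library was left out, but Tmem97 missed the threshold without any library except PGRN KO replicate 6 and Rdh11 without WT replicates 1 or 2 or PGRN KO replicates 4 or 5, up to 0.14 and 0.12 by limma. The median log2 fold change of the 15 was -0.15.

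Among 13 further LXR and efflux genes 10 were tested, and 2 rose, beside 10.4% of all tested genes, while none was called lower. Without PGRN KO replicate 6 there were 3 higher and 2 lower, beside 15.9% and 25.1%. With sample quality weights, which nearly leave that library out, there were 4 higher and 3 lower, beside 1757 and 2468 of all 8882 tested genes. The absence of lower calls thus rested on the setting. At an unadjusted p under 0.05 in limma 4 were higher and 1 lower. Voom called 2 higher and 0 lower, beside 949 and 1318 of all 8882 tested genes. Apoe, the apolipoprotein that accepts exported cholesterol, was at 351, 366 and 396 FPKM in WT and at 919, 882 and 1676 FPKM in PGRN KO, which limma fitted as 1.58 ± 0.25 on the log2 scale (SE, adjusted p 0.0066). The groups were far apart, and replicate 6 was the highest, without which the log2 fold change was 1.28. Abca7, a transporter related to Abca1, was at 5.06, 4.62 and 4.62 FPKM in WT and at 6.82, 6.34 and 5.95 FPKM in PGRN KO (0.35, limma adjusted p 0.031), and it missed the threshold without any library except PGRN KO replicate 6, up to 0.12 by limma. The median log2 fold change of the 10 was 0.11.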

How the data were processed

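Reads of 6 libraries were processed by the authors. The submitters' processing notes name HISAT2 2.0.5, featureCounts 1.5.0-p3 and DESeq2 1.20.0 with mm10 and GRCm38, whereas the methods of the study name other tools and versions. For the cells and the dose of fungus the labels were followed, where the text of the study differs. The authors deposited FPKM per gene, scaled to gene length and to a library size, and the deposited gene length. No source used here states whether strand was used. FPKM multiplied by length gave whole fragments for 100.0% of values above 0, within 0.001 of a step, and these fragments gave the depth. Intervals cover the spread between libraries.

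The genotype contrast was fitted by limma 3.58.1 (R 4.3.3) on log2(FPKM + 1), for genes with a mean of at least 1 FPKM, with a variance trend, two-sided, and a Benjamini-Hochberg threshold of 0.05. The test was checked on simulated data with the same spread in every library. No simulated library deviated with gene length as PGRN KO replicate 6 did, so the check does not cover that case. Alternatives were a pseudocount of 0.1, no filter, a mean of at least 5 FPKM, a TPM scale, quantile normalization, a loess correction for gene length (span 0.5), sample quality weights, limma voom on the recovered fragments, and leaving out each library. Motifs were counted on both strands of RefSeq promoter windows, and only bases before the annotated starts are printed. Named genes were all 34 genes, the genes of the other pathway lists past the threshold, Grn, and cell type markers as needed. A few genes of fatty acid oxidation that were not past the threshold are also named, to describe a sum. The 34 genes and all lists were chosen with earlier results of these data known.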

Additional observations from a re-analysis of the deposited data

How the results depend on the processing

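No paired analysis was possible because no replicate number occurs in both genotypes. None of the 10 called genes changed sign under any alternative. All 10 were called with a pseudocount of 0.1, the length correction, sample quality weights and voom, and without PGRN KO replicate 6. With no filter Sqle, Msmo1, Mylip and Npc1 were lost, with quantile normalization Sqle, Npc1 and Soat1, and on the TPM scale these and Msmo1, Mylip and Srebf2. The cause was not tested. With a mean of at least 5 FPKM only 5 of the 10 were tested, and all 5 were called.

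Over all 8882 tested genes, 921 were called higher and 1230 lower. There were 603 and 763 of 22912 with no filter, and 1757 and 2468 of 8882 with sample quality weights. At a mean of at least 5 FPKM 529 were higher and 953 lower of 4855. Of 8882 genes 922 were higher and 608 lower on the TPM scale, and 1069 and 1113 with quantile normalization. Leaving out 1 library gave 327 to 1415 higher and 371 to 2230 lower. Of the 34 genes 24 were tested, with 2 higher and 8 lower, and these became 1 and 4 of 10 tested at a mean of at least 5 FPKM. With no filter 4 of 34 were lower, on the TPM scale 2 of 24 and with quantile normalization 5 of 24. Leaving out 1 library gave 1 to 11 lower of 24 or 25 tested. The 11 called genes of the other pathway lists became 6 with no filter, 23 with weights and 4 to 19 leaving out 1 library. All these counts stand beside those over all genes given above for the same setting.

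The median log2 fold change of the SREBP-2 program moved from -0.14 to -0.24 with weights and from -0.21 to -0.05 leaving out 1 library. That of the LXR targets moved from -0.23 to -0.38 with a pseudocount of 0.1 or voom and to -0.38 at a mean of at least 5 FPKM, and that of fatty acid synthesis from -0.47 to -0.81 with a pseudocount of 0.1, -0.17 with no filter and -0.89 with voom. Srebf1, near 0, was -0.025 with weights and -0.051 to 0.036 leaving out 1 library, and Pmvk was -0.21 to 0.037.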

Other observations

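Of 16 genes of lysosomal sterol handling and lipid storage, all tested, 3 rose and 2 fell in PGRN KO, beside 10.4% and 13.8% of all tested genes. Without PGRN KO replicate 6 there were 3 higher and 5 lower, beside 15.9% and 25.1%. Their median log2 fold change was -0.13. Stard3, a late endosomal cholesterol carrier, went up from 15.3 ± 1.1 to 29.4 ± 4.5 FPKM (SD, n = 3 each), fitted by limma as 0.89 on the log2 scale (adjusted p 0.0052). Scarb2, a lysosomal membrane protein, rose by 0.61 on the log2 scale, and Fabp5, a fatty acid carrier of macrophages, by 0.60. Lpl, the lipoprotein lipase, fell from 20.9 ± 1.4 to 8.91 ± 0.63 FPKM (SD, n = 3 each), fitted by limma as -1.14 on the log2 scale (adjusted p 0.0012), and Fabp4, a related carrier, fell by 0.67 on that scale. Stard3 and Lpl passed whichever library was left out. Scarb2 missed the threshold without WT replicate 1 or 3 (limma adjusted p 0.062 and 0.058), Fabp5 without any WT library (up to 0.07), and Fabp4 without any library except PGRN KO replicate 6 (up to 0.088).

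Of 11 genes of fatty acid oxidation 9 were tested, and 1 rose, a share near the 10.4% of all tested genes. The count was 2 without PGRN KO replicate 6, beside 15.9%. Cpt2, the inner membrane carnitine palmitoyltransferase, was at 1.65, 1.81 and 1.90 FPKM in WT and at 2.87, 2.25 and 2.86 FPKM in PGRN KO (fitted at 0.39 on the log2 scale, adjusted p 0.039 by limma). The call was lost without any WT library or PGRN KO replicate 4, up to 0.15 by limma. The summed level of the 11 genes was 78.2 to 84.2 FPKM in WT and 91.4 to 104.4 FPKM in PGRN KO. Acadl, the most abundant of them, had means of 50.6 and 64.0 FPKM and was not called (limma adjusted p 0.055), so the sum largely follows that gene. Slc25a20, Etfdh and Ppargc1b had lower means in PGRN KO. Of the 9 tested, 7 had a log2 fold change above 0 and 2 below, beside 4146 and 4736 of all 8882. Their median log2 fold change was 0.13 beside -0.03 for all tested genes.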
